A study of Homo sapiens with 4 samples.

Results

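The neural genes described here are 43 genes, 22 of neural progenitors and 21 of neurons, out of 18640 genes measured on 4 expression arrays. They were chosen by name, as markers of the neural lineage, with no threshold on their values. Earlier results of these data were known at that choice. All 43 genes were measured. The arrays were made from embryoid bodies, floating aggregates in which pluripotent cells begin to differentiate, grown from BG01V, an established line of human embryonic stem cells whose karyotype is variant. The 2 groups were embryoid bodies given the vehicle DMSO and embryoid bodies given TBBD at 10 µM over 48 h, as a rule from day 2 to day 4 of aggregation. By the series title, TBBD inhibits methylation of arginine 17 on histone H3. Each group held 2 arrays, replicate 1 and replicate 2, and all 4 came from the same line, without any genetic change named in the labels. The labels do not say whether equal replicate numbers mark a shared culture, or whether the replicates came from separate cultures. The p-values therefore measure only the spread between these samples, which may be technical.

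During neural induction, ectoderm that is shielded from BMP and Nodal signals switches on SOX1, SOX3, PAX6 and the forebrain factors OTX2, SIX3, LHX2, RAX and FEZF2. Progenitors then express proneural bHLH factors, NEUROG1 and NEUROG2, which activate NEUROD genes. Differentiating neurons add RNA-binding proteins of the ELAVL family, neuronal tubulin and neurofilaments, and later the machinery of synaptic vesicles. Several of these genes also work outside neural tissue: NR2F2 in veins and mesenchyme, CDH2 in mesoderm, and OTX2 and ZIC2 in pluripotent epiblast. In a bulk sample, fewer cells of a type and less RNA per cell cannot be told apart.

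Each value is a log2 RMA signal, averaged over the probesets of a gene. A probeset is a set of few probes in 1 exon, and 1 log2 unit is a doubling. The 4 arrays had median probeset signals from 6.39 to 6.42. The arrays differed more by replicate number than by treatment: the differences between the numbers had an SD across all genes of 0.31 in the DMSO arrays and 0.33 in the TBBD arrays, while those between the treatments had one of 0.21 in number 1 and 0.19 in number 2. Of 20 measured pluripotency markers, 15 lay above the level of silent genes, defined below, on every array, where 65.2% of all genes did. POU5F1, the core pluripotency factor, had a signal of 7.75 on DMSO 1, 7.73 on TBBD 1, 7.20 on DMSO 2 and 6.60 on TBBD 2.

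The level of a silent gene was taken from 348 olfactory receptor genes, which these cells are not known to use. Their 95th percentile was 5.70 on DMSO 1, 5.74 on TBBD 1, 5.67 on DMSO 2 and 5.73 on TBBD 2. Of the 43 neural genes, 23 lay above this level on all 4 arrays, where 65.2% of all genes did. They were 13 of the 22 progenitor genes and 10 of the 21 neuron genes. Another 9 genes were above it on some arrays. The other 11 lay within or below it on every array: the progenitor genes SOX1, PAX6, EMX2 and FEZF2, and the neuron genes NEUROG1, NEUROG2, NEUROD1, NEUROD4, ELAVL4, STMN4 and SYP. Of the 23 genes above the 95th percentile, NR2F1, DACH1, FABP7 and SNAP25 were not above the 99th percentile on every array. Most olfactory receptor genes, 284 of 348, rest on 1 probeset, so their spread is wider than that of a silent gene averaged over many probesets. Signals of different genes come from different probes and are set only against this level, not against each other.

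The groups of genes by role differed in how many lay above the silent level. All 6 structural, surface and RNA-binding genes of progenitors were above it on every array: NES, the intermediate filament nestin, MSI1, an RNA-binding protein of neural stem cells, FABP7, a fatty acid carrier of radial glia, PROM1, the surface glycoprotein CD133, LIX1, and CDH2, which encodes N-cadherin. Of the 7 homeodomain and paired-domain factors, 1 was above it on all 4 arrays: OTX2, a factor of forebrain and midbrain, at 6.63 on DMSO 1, 6.31 on TBBD 1, 6.27 on DMSO 2 and 6.19 on TBBD 2. DACH1, a transcriptional cofactor, was above it as well, at 6.09, 5.93, 6.10 and 6.19 in the same order. Among the 6 transcription factors of neurons it was POU4F1 alone, a POU factor of sensory neurons, at 6.28 on DMSO 1, 6.53 on TBBD 1, 6.40 on DMSO 2 and 6.40 on TBBD 2. PAX6, a central factor of the neural plate, stood at 5.24 on DMSO 1, 5.35 on TBBD 1, 5.43 on DMSO 2 and 5.72 on TBBD 2, not above the silent level on any array. Of the early neuron markers, DCX, a microtubule-binding protein of migrating neurons, stood between 5.71 and 6.02 and was above that level on 3 of 4 arrays. LHX2, a forebrain selector gene, stood between 5.72 and 5.88, and EMX2, a factor of dorsal cortex, between 5.17 and 5.37.

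**Figure D1:**
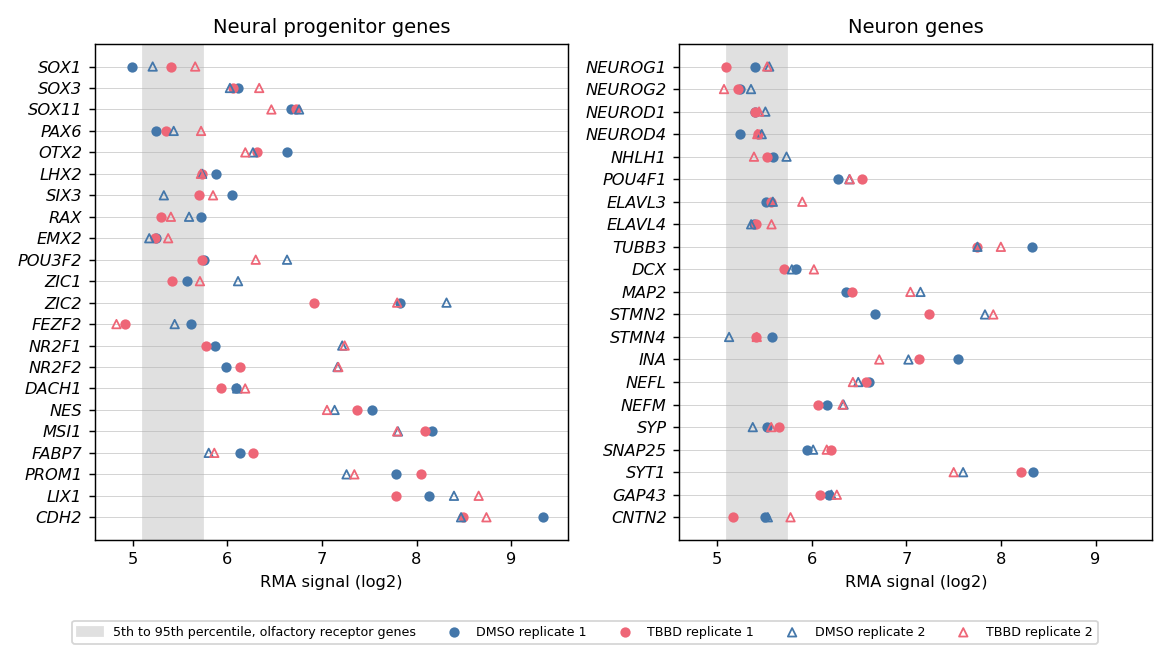
RMA signal (log2, x axis) of each neural progenitor gene (left) and neuron gene (right) on the 4 arrays, with blue for DMSO, red for TBBD, filled circles for replicate 1 and open triangles for replicate 2. The grey band runs from the lowest 5th to the highest 95th percentile of 348 olfactory receptor genes on any array, and 11 genes, among them PAX6 and NEUROD1, lie below the 95th percentile on every array.

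TBBD was compared with DMSO to ask how the neural genes responded to the compound. Limma's adjusted p was under 0.05 for none of the 43, and for none of the 18640 genes (percent called 0 in either direction). An unadjusted p under 0.05 was reached by 139 genes in all, 0.746%, of which 0.397% were higher and 0.349% lower with TBBD. The neural genes among them were SOX1, higher, and FEZF2, lower. The share of 0.746% is smaller than an even spread of p-values would give. The fit held no term for replicate number, so the difference between the numbers counted as error. The nuclear receptor gene NR2F1, at -0.10 and 0.03 within the numbers, had a difference of -0.04 ± 0.64 (SE). The lack of calls therefore does not show that the neural genes did not respond. With the replicate number as a block, 0 genes passed the adjusted test as well. That fit leaves fewer degrees of freedom, so it does not show a lack of response either. The median log2 difference, TBBD minus DMSO, was -0.04 for the progenitor genes, 8 higher and 14 lower, and -0.02 for the neuron genes, 9 higher and 12 lower. Over all genes it was -0.0035.

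ZIC2 and FEZF2, both zinc finger factors, had the largest differences from DMSO of the 43, and neither passed the adjusted test. ZIC2, a factor of the early neural plate and dorsal midline, had a signal of 7.83 on DMSO 1 and 8.32 on DMSO 2, and 6.91 on TBBD 1 and 7.80 on TBBD 2. Both TBBD arrays lay below both DMSO arrays, though TBBD 2 and DMSO 1 differed by little. The difference was -0.72 ± 0.34 (SE, n = 2 per group; limma unadjusted p = 0.086, adjusted p = 1), and it did not pass the test. It stood at -0.92 in number 1 and -0.52 in number 2, and all 4 of its probesets were lower with TBBD. It was -0.28 without TBBD replicate 1 and -1.16 without TBBD replicate 2, fits that leave the replicate numbers unequal.

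FEZF2, which specifies forebrain and deep-layer cortical neurons, stood at 5.61 on DMSO 1 and 5.44 on DMSO 2, and 4.92 on TBBD 1 and 4.83 on TBBD 2. The groups did not overlap, but every value lay below the silent level of its array. Its 5 probesets ran from -2.55 to 0.04 in TBBD minus DMSO, so the mean rests largely on a single probeset. With the median over probesets FEZF2 differed by -0.22. ZIC1, a relative of ZIC2, had values of 5.57 on DMSO 1 and 6.11 on DMSO 2, and 5.42 on TBBD 1 and 5.71 on TBBD 2, and the groups overlapped. It was above the silent level on DMSO 2 only.

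SOX1, the earliest factor restricted to the neural plate, stood at 4.99 on DMSO 1 and 5.41 on TBBD 1, and at 5.21 on DMSO 2 and 5.66 on TBBD 2, higher with TBBD in each number. The difference was 0.43 ± 0.15 (SE, n = 2 per group; limma unadjusted p = 0.036, adjusted p = 1), which did not pass the test, and 0 of its 3 probesets were lower with TBBD. All 4 values lay below the silent level. SOX3, its close relative, was above that level at 6.11 on DMSO 1 and 6.03 on DMSO 2, and 6.06 on TBBD 1 and 6.34 on TBBD 2, with overlapping groups. SOX11, a factor of maturing neurons, had 6.67 on DMSO 1 and 6.76 on DMSO 2, and 6.73 on TBBD 1 and 6.47 on TBBD 2. It overlapped between the groups too.

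The TBBD and DMSO arrays did not overlap in 10 of the 43 genes, 5 higher and 5 lower with TBBD. Over all genes 10.5% were apart and higher and 10.4% apart and lower. Besides ZIC2, FEZF2 and SOX1, the apart genes with the largest differences were RAX, the eye field factor, and NHLH1, a bHLH factor of young neurons, both lower, and SNAP25 and SYP, of the synaptic vesicle machinery, and POU4F1, all higher. RAX stood at 5.72 on DMSO 1 and 5.60 on DMSO 2, and 5.30 on TBBD 1 and 5.40 on TBBD 2. NHLH1 stood at 5.59 on DMSO 1 and 5.73 on DMSO 2, and 5.53 on TBBD 1 and 5.39 on TBBD 2. Only DMSO 1 for RAX and DMSO 2 for NHLH1 were above the silent level. SNAP25, which drives vesicle fusion, was above it on all arrays, at 5.95 on DMSO 1 and 6.01 on DMSO 2, and 6.20 on TBBD 1 and 6.16 on TBBD 2. SYP, the vesicle protein synaptophysin, stood at 5.53 on DMSO 1 and 5.38 on DMSO 2, and 5.65 on TBBD 1 and 5.57 on TBBD 2, below the silent level on every array. Of these 4 genes the differences ran from -0.31 for RAX to 0.20 for SNAP25. POU4F1 differed by 0.26 in number 1 but by only 0.0039 in number 2, and 1 of its 2 probesets was lower with TBBD. ELAVL4 at 0.12 and NEUROG2 at -0.15 completed the 10. Among the 348 olfactory receptor genes, used as silent genes, 77 were apart and higher with TBBD and 29 apart and lower.

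The TBBD difference was next set out within each replicate number, where 1 TBBD array meets 1 DMSO array and no test is possible. In number 1, 6 progenitor genes were higher and 16 lower with TBBD, with a median of -0.12. In number 2, 12 were higher and 10 lower, with a median of 0.02. The neuron genes had medians of -0.04 in number 1 and 0.0039 in number 2. Over all genes the medians were -0.02 and 0.01. Of the 43 genes 16 were lower in both numbers and 11 higher in both, where 23% and 21.5% of all genes were. Another 16 changed sign between the numbers, where 55.3% of all genes did.

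At a log2 difference of at least 0.32 in size, 9 neural genes were lower with TBBD in number 1, where 6.63% of all genes were, and 2 were higher, where 4.42% were. The lower ones were ZIC2, CDH2, FEZF2, TUBB3, RAX, INA, LIX1, CNTN2 and SIX3, and the higher ones STMN2 and SOX1. In number 2, 5 were lower, where 3.13% of all genes were, and 2 were higher, where 4.66% were. Those were FEZF2, ZIC2, ZIC1, NHLH1 and POU3F2 on the lower side, and SIX3 and SOX1 on the higher. ZIC2 and FEZF2 were past this size downward in both numbers, and SOX1 upward in both. Of the genes named for number 1, only ZIC2, CDH2, TUBB3, INA, LIX1 and STMN2 lay above the silent level on all 4 arrays. Of those named for number 2, only ZIC2 did, so most of these differences were measured near background.

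CDH2 and TUBB3 are examples of genes that changed sign between the numbers, as 37.2% of the neural genes and 55.3% of all genes did. CDH2, N-cadherin, had 9.34 on DMSO 1 against 8.49 on TBBD 1, 8.47 on DMSO 2 and 8.74 on TBBD 2. The DMSO 1 array stood high and the other 3 lay close together, so TBBD minus DMSO was -0.85 in number 1 and 0.27 in number 2. TUBB3, the neuronal beta-tubulin, had 8.33 on DMSO 1, 7.75 on TBBD 1, 7.75 on DMSO 2 and 8.00 on TBBD 2, with the same array high. Its differences were -0.58 and 0.25. Primitive streak and early mesoderm markers were also highest on DMSO 1: the median signal of the 16 measured was 6.84 there, 6.12 on TBBD 1, 6.09 on DMSO 2 and 5.97 on TBBD 2. TBXT, which encodes brachyury, stood at 7.87, 6.89, 6.74 and 6.42 in that order. The part of these cells in the CDH2 and TUBB3 values was not tested. SIX3, an anterior forebrain factor near the silent level, changed sign as well, with differences of -0.34 in number 1 and 0.52 in number 2. It stood at 6.04 on DMSO 1, 5.70 on TBBD 1, 5.33 on DMSO 2 and 5.85 on TBBD 2. Here DMSO 1 was highest and DMSO 2 lowest, and the arrays other than DMSO 1 did not lie close together.

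**Figure D2:**
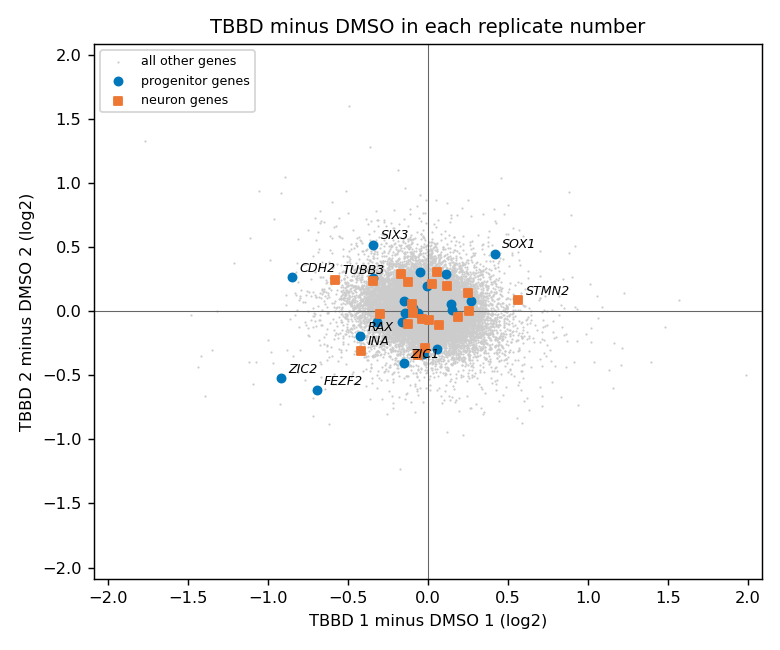
TBBD minus DMSO (log2) in replicate number 1 (x axis) against number 2 (y axis) for progenitor genes (blue circles), neuron genes (orange squares) and all other genes (grey), with neural genes beyond 0.4 in either number named. ZIC2 and FEZF2 lie low in both numbers and SOX1 high in both, whereas CDH2 stands at -0.85 in number 1 and 0.27 in number 2.

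The replicate numbers were then compared with each other over both treatments, 2 arrays of number 2 against 2 arrays of number 1. The labels do not say how the numbers differ. With limma and Benjamini-Hochberg adjustment over all genes, 1001 of 18640 genes passed the threshold, 5.37%, of which 3.35% were higher and 2.02% lower on the number 2 arrays. Among the neural genes 7 of 43 passed, 5 higher and 2 lower. They were 4 of the 22 progenitor genes and 3 of the 21 neuron genes. The median difference was 0.01 for progenitor genes, 11 higher and 11 lower, and it ran from -0.16 to 0.12 under the alternatives. It was 0.07 for neuron genes, 13 higher and 8 lower, against -0.0024 over all genes. The median absolute difference was 0.30 for progenitor genes and 0.14 for neuron genes, and 0.13 over all genes.

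The related nuclear receptor genes NR2F1 and NR2F2, also called COUP-TFI and COUP-TFII, rose most. NR2F1, which patterns the cortex along its axis, had 5.87 on DMSO 1 and 5.77 on TBBD 1, against 7.21 on DMSO 2 and 7.24 on TBBD 2. NR2F2, a factor of caudal forebrain that is also strong in venous and mesenchymal cells, had 5.99 on DMSO 1 and 6.13 on TBBD 1, against 7.17 on DMSO 2 and 7.17 on TBBD 2. In both genes each number 2 array stood more than 1 log2 unit above each number 1 array. The log2 difference was 1.41 ± 0.10 (SE, n = 2 per number; limma adjusted p = 0.00098) for NR2F1, a 2.65-fold rise, and 1.11 ± 0.10 (adjusted p = 0.0026) for NR2F2, a 2.16-fold rise. On the number 1 arrays NR2F1 stood only just above the silent level, 5.70 on DMSO 1 and 5.74 on TBBD 1. It lay below the 99th percentile of the olfactory receptor genes there (5.97 and 6.02), so the size of its rise is measured near background. All 4 probesets of NR2F1 and all 6 of NR2F2 were higher on the number 2 arrays. Both calls held with each array left out in turn and under every other alternative run. TBBD minus DMSO was -0.10 and 0.03 within the numbers for NR2F1, and 0.15 and 0.0078 for NR2F2, so their treatment arrays nearly coincided within a number.

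To show the DNA at the starts of genes that differed between the numbers, windows from 250 bases before to 50 bases after a start were read from RefSeq's table (GRCh38.p14). They are shown for the 3 called genes with a listed start at the first base of the gene in RefSeq's gene table, NR2F1 and POU3F2, which rose, and PROM1, which fell. Each is written 5′ to 3′ on the gene's strand, with the E-box CANNTG, which reads alike on both strands and is the site bHLH proneural factors bind, in capitals.
NR2F1, chr5:93582972-93583271, plus strand: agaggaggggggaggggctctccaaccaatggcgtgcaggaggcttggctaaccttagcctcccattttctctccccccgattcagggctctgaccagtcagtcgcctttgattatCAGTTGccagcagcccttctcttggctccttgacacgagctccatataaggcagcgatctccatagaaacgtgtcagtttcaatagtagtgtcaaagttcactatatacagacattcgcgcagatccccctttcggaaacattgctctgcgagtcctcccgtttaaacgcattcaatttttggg
POU3F2, chr6:98834324-98834623, plus strand: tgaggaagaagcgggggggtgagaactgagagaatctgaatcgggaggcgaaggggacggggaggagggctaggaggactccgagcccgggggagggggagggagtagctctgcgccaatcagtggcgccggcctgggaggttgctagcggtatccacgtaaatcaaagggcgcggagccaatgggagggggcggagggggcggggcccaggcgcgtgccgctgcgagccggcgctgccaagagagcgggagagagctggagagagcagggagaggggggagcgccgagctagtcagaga
PROM1, chr4:16083974-16084273, minus strand: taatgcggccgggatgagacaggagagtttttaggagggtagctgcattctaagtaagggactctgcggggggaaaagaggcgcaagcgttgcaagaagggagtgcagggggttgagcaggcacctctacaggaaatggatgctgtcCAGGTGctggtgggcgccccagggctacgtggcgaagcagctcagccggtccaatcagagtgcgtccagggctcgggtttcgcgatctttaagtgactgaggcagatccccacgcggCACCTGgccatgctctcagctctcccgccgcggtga
CANNTG occurred 1 time in the NR2F1 window, 0 times in POU3F2 and 2 times in PROM1, and 68.7% of the 35116 windows at all listed starts hold it. The nuclear receptor half-site AGGTCA, the SOX motif AACAAT and the octamer ATGCAAAT, searched on both strands and free to overlap CANNTG, occurred 0 times in all 3, where 13.8%, 10.1% and 1.77% of all windows hold them. The GC content was 51.3% for NR2F1, 68.3% for POU3F2 and 60.7% for PROM1, with a median of 58.7% over all windows. A match of letters is a description and shows no binding.

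Of the other factors, POU3F2, the neuronal POU factor BRN2, had 5.76 on DMSO 1 and 5.73 on TBBD 1, against 6.63 on DMSO 2 and 6.30 on TBBD 2. It rose by 0.72 ± 0.13 (SE, n = 2 per number; limma adjusted p = 0.025) on the number 2 arrays, on 2 probesets. On the number 1 arrays POU3F2 was at the silent level, just above it on DMSO 1 (5.70) and just below it on TBBD 1 (5.74), so this size is measured against background. The call was lost without DMSO replicate 1 (adjusted p = 0.084), TBBD replicate 1 (adjusted p = 0.084) or DMSO replicate 2 (adjusted p = 0.075), at differences from 0.56 to 0.74. ZIC2 stood higher on the number 2 arrays by 0.69 ± 0.29 (adjusted p = 0.24) and did not pass the test, with TBBD 2 and DMSO 1 overlapping. With the treatment as a second term it was called (adjusted p = 0.046). LIX1, at 8.13 on DMSO 1, 7.78 on TBBD 1, 8.40 on DMSO 2 and 8.66 on TBBD 2, came near the threshold without passing (adjusted p = 0.076).

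Of the 6 structural, surface and RNA-binding genes of progenitors, 5 were lower on the number 2 arrays and 1 was called, with a group median of -0.34. PROM1 had 7.78 on DMSO 1 and 8.05 on TBBD 1, against 7.26 on DMSO 2 and 7.34 on TBBD 2. It fell by 0.61 on the log2 scale (SE 0.12, n = 2 per number; limma adjusted p = 0.033), and 2 of its 27 probesets were higher on the number 2 arrays. The PROM1 call was lost without TBBD replicate 1 (adjusted p = 0.098), DMSO replicate 2 (adjusted p = 0.10) or TBBD replicate 2 (adjusted p = 0.095). Taking the median of its probesets ended it too (adjusted p = 0.16). NES, MSI1 and FABP7 were also apart and lower by number without passing the test. NES had 7.53 on DMSO 1, 7.37 on TBBD 1, 7.13 on DMSO 2 and 7.05 on TBBD 2 (adjusted p = 0.11). MSI1 had 8.16, 8.09, 7.80 and 7.80 in that order (adjusted p = 0.11), and 0 of its 15 probesets were higher on the number 2 arrays. FABP7 had 6.13, 6.27, 5.80 and 5.86 (adjusted p = 0.095).

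Of the 8 genes of the neuronal cytoskeleton 2 were called, and both rose on the number 2 arrays. STMN2, which regulates microtubules in growing axons, had 6.67 on DMSO 1 and 7.23 on TBBD 1, against 7.83 on DMSO 2 and 7.92 on TBBD 2. It rose by 0.92 ± 0.18 (SE, n = 2 per number; limma adjusted p = 0.032), with 7 of 7 probesets higher on the number 2 arrays. MAP2, the microtubule-associated protein of dendrites, had 6.36 on DMSO 1 and 6.42 on TBBD 1, against 7.15 on DMSO 2 and 7.04 on TBBD 2. It rose by 0.70 ± 0.10 (adjusted p = 0.012), with 23 of 24 probesets higher. Without DMSO replicate 1 both calls were lost (adjusted p = 0.058 for STMN2 and 0.053 for MAP2), as was that of STMN2 without TBBD replicate 2 (adjusted p = 0.095) and that of MAP2 on the median of its probesets (adjusted p = 0.082).

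INA, the neuronal intermediate filament alpha-internexin, had 7.55 on DMSO 1 and 7.13 on TBBD 1, against 7.02 on DMSO 2 and 6.71 on TBBD 2. Its difference between the numbers was -0.47 ± 0.17 (SE, n = 2 per number; limma adjusted p = 0.16), with 0 of 4 probesets higher. NEFL, the light neurofilament chain, had 6.61 on DMSO 1, 6.57 on TBBD 1, 6.49 on DMSO 2 and 6.43 on TBBD 2. NEFM, the medium chain, had 6.16, 6.07, 6.34 and 6.32 in that order, and neither passed the test. Nor did TUBB3 (adjusted p = 0.71) or DCX (adjusted p = 0.59). STMN4, a relative of STMN2, lay below the silent level on all arrays.

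Among the 5 synapse, growth cone and axon genes, SYT1 was called and fell. SYT1, the calcium sensor of vesicle release, had 8.33 on DMSO 1 and 8.21 on TBBD 1, against 7.60 on DMSO 2 and 7.50 on TBBD 2. The number 2 arrays were lower by a log2 difference of -0.72 ± 0.10 (SE, n = 2 per number; limma adjusted p = 0.012), and 1 of 12 probesets was higher. The change was -0.73 between the DMSO arrays and -0.71 between the TBBD arrays. Its call was lost without DMSO replicate 1 (adjusted p = 0.055) or TBBD replicate 2 (adjusted p = 0.063). SNAP25, its partner in vesicle fusion, had a difference of 0.01 with a 95% confidence interval from -0.27 to 0.30. GAP43, a growth cone protein, had 6.18 on DMSO 1, 6.08 on TBBD 1, 6.21 on DMSO 2 and 6.26 on TBBD 2. CNTN2, an axonal adhesion molecule, stood between 5.16 and 5.77, and neither was called.

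The 6 transcription factors of neurons held no call in limma, and 1, NEUROG1, had an unadjusted p under 0.05, where 21% of all genes did. Their differences between the numbers ran from -0.02 for NEUROG2 to 0.29 for NEUROG1, and 5 of them were not above the silent level on all arrays. The RNA-binding genes ELAVL3 and ELAVL4 differed by 0.20 and 0.07 without passing the test. In all, both number 2 arrays lay above both number 1 arrays in 15 neural genes, where 25.1% of all genes did, and below them in 9, where 25.9% did.

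**Figure D3:**
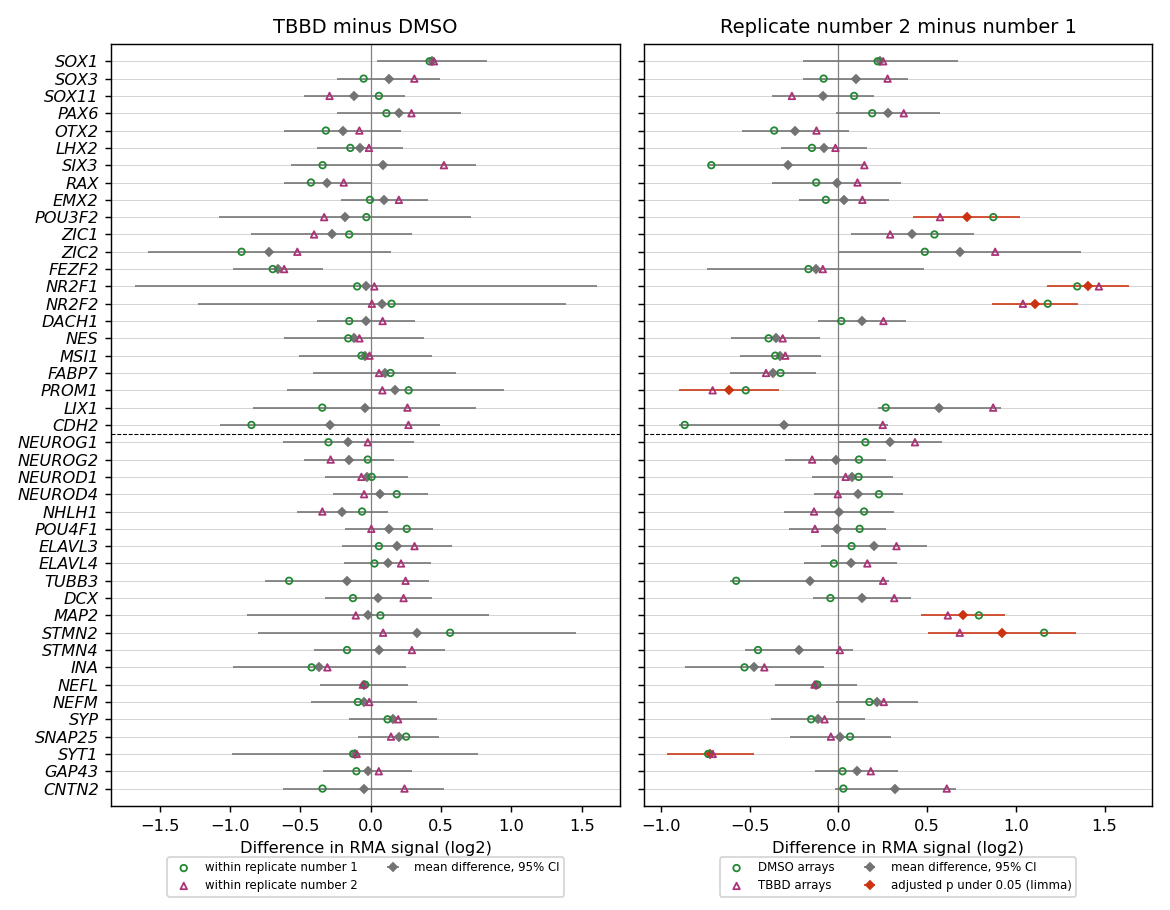
Differences in RMA signal (log2, x axes) of each neural gene, TBBD minus DMSO (left) and replicate number 2 minus number 1 (right), with progenitor genes above the dashed line. Diamonds and bars are the mean difference and its 95% confidence interval from limma, red where the adjusted p is under 0.05, and open symbols are the differences of single pairs of arrays. No gene is red on the left, and 7 are red on the right, from SYT1 at -0.72 to NR2F1 at 1.41.

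Wider lists of neural genes outside the 43 were counted the same way. Of 30 measured progenitor genes, 3 were called higher on the number 2 arrays and 0 lower, with a median of 0.06. SOX2, shared by neural progenitors and pluripotent cells, stood at 6.09 on DMSO 1, 5.74 on TBBD 1, 7.49 on DMSO 2 and 6.93 on TBBD 2, a difference of 1.29 ± 0.20 (SE; limma adjusted p = 0.015). PTN, which encodes the growth factor pleiotrophin, rose by 0.94. OLIG3, a dorsal spinal cord factor, differed by 0.84, a size measured against background: it was below the silent level on both number 1 arrays, at 5.16 on DMSO 1 and 5.36 on TBBD 1, and above it on both number 2 arrays, at 6.24 on DMSO 2 and 5.96 on TBBD 2. Of 49 measured neuron genes, 1 was called higher and 4 lower, with a median of -0.0029. VAMP2, a synaptic vesicle protein, rose by 0.71. The kinesin gene KIF5C changed by -0.99, UCHL1, an abundant neuronal ubiquitin hydrolase, by -0.72, and the beta-tubulin genes TUBB2A and TUBB2B by -0.70 each. Leaving out 1 array ended the call of SOX2 (without TBBD replicate 1), OLIG3 (without DMSO replicate 1), VAMP2 (without TBBD replicate 2), TUBB2A and TUBB2B (without DMSO replicate 1 or TBBD replicate 2) and UCHL1 (without DMSO replicate 1, DMSO replicate 2 or TBBD replicate 2). With TBBD, 0 of the 30 and 0 of the 49 passed in limma, and 0 and 1 had an unadjusted p under 0.05.

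Marker lists of several other lineages had larger medians between the numbers than the neural lists. Of 21 mesenchyme and matrix markers 15 were called higher on the number 2 arrays and 0 lower, with a median of 0.85. Their median signal was 7.51 on DMSO 1, 7.70 on TBBD 1, 8.36 on DMSO 2 and 8.49 on TBBD 2. Endothelial markers had 7 of 10 called higher and a median of 0.81, with median signals of 5.62 and 5.73 on the number 1 arrays and 6.64 and 6.96 on the number 2 arrays. Of 16 visceral endoderm and fetal liver markers, 9 were called higher, with a median of 0.91, and AFP, the fetal serum protein, stood at 5.50, 5.85, 7.98 and 8.22 on DMSO 1, TBBD 1, DMSO 2 and TBBD 2. Neural crest markers had 3 of 11 called higher and a median of 0.44. Pluripotency markers had 6 of 20 called lower and 1, SOX2, higher, with a median of -0.22. Primitive streak and early mesoderm markers had 14 of 16 lower and 1 called lower, with a median of -0.43. Of 11 surface ectoderm and epithelium markers 2 were called lower, the epithelial adhesion genes CDH1 and EPCAM, and 0 higher, with a median of -0.36. The called neural genes NR2F1, NR2F2, STMN2, POU3F2 and MAP2 rose between the same arrays as the mesenchyme, endothelial and endoderm markers. PROM1 and SYT1 fell between the same arrays as the called pluripotency, primitive streak and epithelial markers. The part of these cell types in the neural values was not tested.

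**Figure D4:**
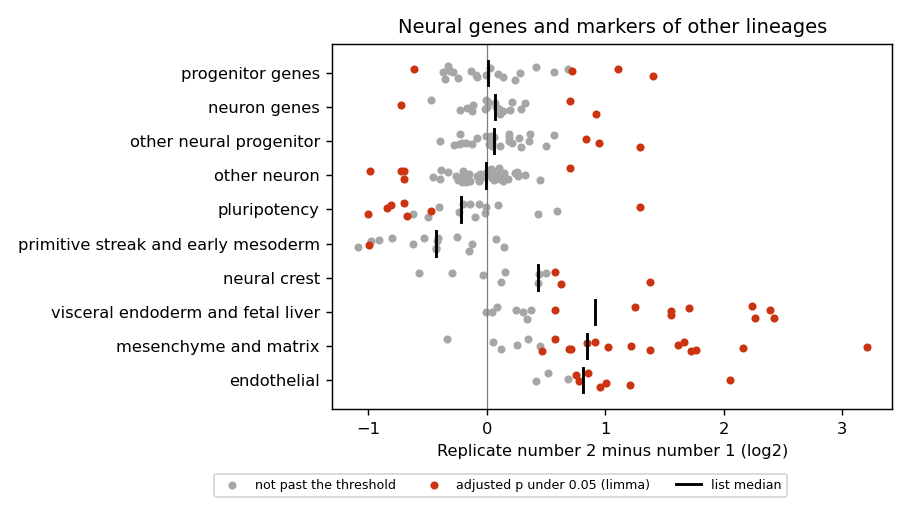
Replicate number 2 minus number 1 (log2, x axis) for each measured gene of the neural lists and of markers of other lineages, red where limma's adjusted p is under 0.05, with the list median as a black line. A gene in several lists is drawn in each. The 2 neural lists centre near 0 with genes on both sides, while mesenchyme, endothelial and visceral endoderm markers have medians between 0.81 and 0.91.

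Astroglial and oligodendrocyte markers held no call, with 0 of 11 past the threshold in limma for either comparison, and 3 of the 11 lay above the silent level on all arrays. An unadjusted p under 0.05 was reached by 0 of the 11 between TBBD and DMSO and by 3 between the numbers, near the 21% of all genes that reached it there.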

How the data were processed

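RNA from 4 embryoid body samples was hybridised to Human Gene 1.0 ST arrays of Affymetrix. Trizol RNA was labelled with biotin, per the labels' protocols. RMA was the authors' processing, per the submitters' processing notes, with no version or settings given in the sources used here. Deposited by the authors, the table holds log2 RMA values per probeset, a scale read from the values. No detection call was used, and the number of arrays limits the precision.

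Of 247312 probesets, 277 with a placeholder value were left out. The 218927 with 1 gene symbol in the platform annotation were averaged into 18640 genes (median 9 probesets), older symbols being updated through a RefSeq gene table. Cross-hybridisation between related genes was not assessed.

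Groups and numbers came from the sample titles. Limma's moderated test (two-sided, Benjamini-Hochberg adjusted over the whole table, threshold 0.05) was run for TBBD minus DMSO and for number 2 minus number 1, each as the only term. R 4.3.3, limma 3.58.1, Python 3.11.15, numpy 2.4.6, pandas 2.3.3 and matplotlib 3.10.9 were used. On simulated arrays of 18640 genes without a difference between numbers, the TBBD fit recovered 95.5% of 67 genes changed 2-fold. Simulated number fits recovered 95.5% as well, and noise was independent, which need not hold here. Unchanged genes called were 8 in the TBBD fit and 12 in the number fit. The real arrays differed by replicate number, and the TBBD fit held no term for it. The simulated share therefore does not give the power of the TBBD fit on these arrays.

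The neural genes and all lists were chosen with earlier results of these data known. Values on every array were given by rule for genes above the silent level, up to 4 per direction apart between treatments, and those called between numbers, up to 6 per direction. Outside the 43, up to 4 called genes per direction and a few defining markers were named. CDH2, TUBB3 and SIX3 were described within numbers after their values were seen. Alternatives were quantile normalization again, median centring, the median over probesets, the brighter part of the genes, at least 3 probesets, an intensity trend, each array left out, the replicate number as a block, the treatment as a second term, and the median or the 99th percentile as the silent level.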

Additional observations from a re-analysis of the deposited data

How the results depend on the processing

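No neural gene and no gene at all passed limma's adjusted threshold for TBBD minus DMSO under any alternative run, the replicate number as a block included (0 genes with the replicate block). Same-number arrays deviated together (Pearson r = 0.566 across genes between DMSO 2 minus DMSO 1 and TBBD 2 minus TBBD 1), but with 2 pairs and no label this does not establish pairing. The median of the neuron genes for TBBD ran from -0.0505 to 0.0672 with 1 array left out, and changed sign without TBBD replicate 1 or DMSO replicate 2 (0.0271). That of the progenitor genes ran from -0.10 to -0.01.

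For number 2 minus number 1, the 1001 genes became 653 with the treatment as a second term, which leaves fewer degrees of freedom, and between 368 and 685 with 1 array left out. The 7 neural genes became 3 without DMSO replicate 1, 5 without TBBD replicate 1, 5 without DMSO replicate 2 and 4 without TBBD replicate 2. NR2F1 and NR2F2 were called in all of these. The neuron median of 0.07 was 0.0498 with quantile normalization again, 0.0501 with median centring, -0.0060 with the median over probesets, -0.13 in the brighter part of the genes, which drops the dim members, and between 0.0454 and 0.0838 with 1 array left out. The progenitor median of 0.01 was -0.16 in the brighter part of the genes, which drops the dim members, -0.0123 with quantile normalization again, -0.0071 with median centring, and between -0.0141 and 0.1194 with 1 array left out, highest without DMSO replicate 1. The cause of the other moves was not tested. Of the 23 neural genes above the silent level, the count stayed within 1.5 times under each alternative run. With an array left out, the single array that remains in its group is taken to vary as the pairs do. The median half-width of a gene's 95% confidence interval was 0.36 for TBBD and 0.26 for the numbers. For the typical gene, smaller differences did not reach an unadjusted p of 0.05 in limma. The adjusted threshold asked for more than that. FEZF2 at -0.66 was not called for TBBD, and FABP7 at -0.37 was not called between the numbers.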
